A study of Mus musculus with 15 samples.

Results

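The genes described here encode the mitochondrial respiratory chain and the ATP synthase. The rule that picks them reads the gene symbol and no measured value. Members are all genes whose symbol starts with Nduf, Uqcr or Atp5, the isoform genes from Cox4 to Cox8, and Sdha, Sdhb, Sdhc, Sdhd, Cycs and Cyc1. The array held 128 probes for 95 such genes, out of 14443 genes tested. All 95 passed the filter on dim probes (in some group, all 3 arrays had to read well above background), and 91 were above background on all 15 arrays. The other 4 (Cox6a2, Cox7b2, Cox8b and Cox8c) were dim, so their folds are bounds and they are treated apart. By role, the members were 7 core and 30 accessory subunits of complex I, 8 complex I assembly factors, 4 genes of complex II, 9 of complex III, cytochrome c, 19 of complex IV and 17 of complex V.

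Mouse embryonic stem cells of 5 groups were hybridised to single-colour Agilent arrays, 3 arrays to a group. The groups were wild-type cells, Nat1-null cells (null cells), null cells with a tet-inducible Map3k3 transgene grown without or with doxycycline (Dox), and null cells with a tet-inducible EGFP transgene grown with Dox. All transgenic groups thus lack Nat1, today called Eif4g2, whose protein resembles the scaffold eIF4G of translation initiation. Map3k3 encodes a kinase that acts upstream of MAP kinases, and EGFP is the control transgene. The labels give no Dox dose or time, name no parent line for the null cells, and do not say whether replicates came from separate cultures or whether a line is 1 clone. P-values therefore measure only the spread between these arrays, which may be technical.

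The respiratory chain lies in the inner mitochondrial membrane. Complexes I (NADH dehydrogenase) and II (succinate dehydrogenase) pass electrons to ubiquinone, complex III passes them to cytochrome c and complex IV (cytochrome c oxidase) to oxygen, and complex V (ATP synthase) makes ATP from the resulting proton gradient. Most subunits are encoded in the nucleus, and several complex IV subunits have isoforms best known from muscle or testis. Naive mouse embryonic stem cells are known to respire as well as to use glycolysis, and primed cells to rely more on glycolysis. No probe with a RefSeq name matched a subunit encoded in mitochondrial DNA, so those subunits were not analysed here.

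Nuclear respiratory chain promoters are textbook targets of the factors NRF1, GABPA and YY1. Upstream regions are shown here because many members moved together. The sequences are from RefSeq (build GRCm38.p6) and run from 250 bases before the annotated start to 30 bases after it, on the gene's strand. Capitals mark exact matches on either strand to 3 short motifs: CGCATGCG (NRF1), CCGGAAG (GABPA) and AAGATGGCG (YY1). Ndufs8, Sdhb, Cox6b1 and Cox8a rose in the null cells and hold a match to the GABPA motif, Ndufb2 and Cox5b rose and hold none of the 3, and Cycs holds a match to the NRF1 motif.
Ndufs8: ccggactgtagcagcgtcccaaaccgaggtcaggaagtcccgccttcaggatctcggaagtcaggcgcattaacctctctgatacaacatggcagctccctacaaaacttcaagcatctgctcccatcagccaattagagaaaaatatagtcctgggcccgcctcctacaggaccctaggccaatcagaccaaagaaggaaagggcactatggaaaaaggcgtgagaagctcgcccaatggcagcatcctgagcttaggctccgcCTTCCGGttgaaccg
Sdhb: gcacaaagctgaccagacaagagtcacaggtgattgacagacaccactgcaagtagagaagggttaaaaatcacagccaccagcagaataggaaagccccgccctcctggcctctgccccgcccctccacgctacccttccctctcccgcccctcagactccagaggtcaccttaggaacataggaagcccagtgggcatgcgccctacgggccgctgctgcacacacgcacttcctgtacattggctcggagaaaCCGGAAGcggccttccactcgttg
Cox6b1: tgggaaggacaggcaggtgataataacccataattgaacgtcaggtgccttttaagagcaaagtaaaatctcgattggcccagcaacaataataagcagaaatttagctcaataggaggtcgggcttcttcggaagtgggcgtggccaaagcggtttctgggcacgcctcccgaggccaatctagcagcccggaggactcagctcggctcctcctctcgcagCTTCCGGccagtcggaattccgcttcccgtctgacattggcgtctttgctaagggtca
Cox8a: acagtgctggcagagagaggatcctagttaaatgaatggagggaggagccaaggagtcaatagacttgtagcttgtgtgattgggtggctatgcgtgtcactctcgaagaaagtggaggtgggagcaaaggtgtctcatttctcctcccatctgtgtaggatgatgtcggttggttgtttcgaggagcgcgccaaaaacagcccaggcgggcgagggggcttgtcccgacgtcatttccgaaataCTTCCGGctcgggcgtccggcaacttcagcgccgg
Ndufb2: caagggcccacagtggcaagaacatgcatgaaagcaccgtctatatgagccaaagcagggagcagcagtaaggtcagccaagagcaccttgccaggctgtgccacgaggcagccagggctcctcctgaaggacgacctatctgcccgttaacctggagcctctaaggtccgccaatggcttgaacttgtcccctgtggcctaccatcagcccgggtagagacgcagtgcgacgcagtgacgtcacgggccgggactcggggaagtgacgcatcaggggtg
Cox5b: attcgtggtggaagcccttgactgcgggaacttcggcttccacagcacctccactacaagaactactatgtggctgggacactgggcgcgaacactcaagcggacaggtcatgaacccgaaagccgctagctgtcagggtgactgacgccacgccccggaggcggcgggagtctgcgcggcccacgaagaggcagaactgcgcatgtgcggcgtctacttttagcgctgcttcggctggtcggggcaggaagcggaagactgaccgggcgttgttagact
Cycs: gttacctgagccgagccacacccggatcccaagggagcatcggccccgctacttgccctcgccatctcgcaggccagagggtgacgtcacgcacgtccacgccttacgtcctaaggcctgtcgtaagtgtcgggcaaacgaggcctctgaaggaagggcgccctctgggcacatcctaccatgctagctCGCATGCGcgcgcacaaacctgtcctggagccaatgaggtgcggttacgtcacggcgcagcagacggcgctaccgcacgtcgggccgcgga
The windows lie at chr19:3912745-3913024 (Ndufs8, minus strand), chr4:140961021-140961300 (Sdhb, plus strand), chr7:30626085-30626364 (Cox6b1, minus strand), chr19:7217587-7217866 (Cox8a, minus strand), chr6:39592315-39592594 (Ndufb2, plus strand), chr1:36691237-36691516 (Cox5b, plus strand) and chr6:50566540-50566819 (Cycs, minus strand). Of the 95 members 77 had a promoter in the RefSeq table. The NRF1 motif was found in 11 of these 77 (14.3%), against 3.72% of the 11476 tested genes with a promoter and 1.98% of all 27025 genes in the table. The GABPA motif was found in 19 (24.7%), against 17.4% and 9.48%, and the YY1 motif in 2 (2.60%), against 2.34% and 1.22%. Of the 55 members higher in null cells at adjusted p alone (below), 32.7% held at least 1 of the 3 motifs, and of the other 22 members 31.8%, against 22.0% of tested genes. The motifs differed in direction, with GABPA in 29.1% and 13.6% and NRF1 in 12.7% and 18.2%. Of the 16 members with a promoter that rose, 5 (31.2%) held the GABPA motif, so the printed examples hold it more often than the risen members do. A match is a description of these letters and not of binding.

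Values are log2 signals after subtraction of the 75th percentile of each array, which lay between 494 and 614 units. Between 42.7 and 53.9% of probes were well above background on an array. Arrays in the slides' row 1 had 50.7 to 53.9% and those in row 2 had 42.7 to 49.1%, lowest on the array Map3k3 with Dox 2. On slide 2 the wild-type arrays took row 1 and those of null cells row 2, so that row and genotype cannot be told apart between these groups. The targeted gene Eif4g2 read 4.31 ± 0.15 in wild-type cells and 1.71 ± 0.19 in null cells (SD, n = 3), and between 1.56 and 1.62 in the transgenic groups. All 10 embryonic stem cell markers were above background in every group. Their summed linear signal was 729 to 784 times the 75th percentile in wild-type cells, 1230 to 1280 in null cells, 1170 to 1240 in Map3k3 cells without Dox, 920 to 970 with Dox and 1190 to 1220 in EGFP cells, the same order of groups as in both main comparisons of the members. The summed linear signal of 8 trophectoderm markers in null, EGFP and Map3k3 cells without Dox was 10.9 to 26.9 times the 75th percentile, against 185 to 190 in wild-type cells and 328 to 389 in Map3k3 cells with Dox. The 9 fibroblast markers summed to at least 94.6 on every wild-type array, 11.0 to 14.2 in Map3k3 cells with Dox and 5.02 to 6.49 in the other groups. Lum was below background on all arrays and Dcn on all arrays except those of wild-type cells. The 7 primitive endoderm markers summed to 1.08 to 1.21 in Map3k3 cells with Dox and to 0.463 to 0.775 in the other groups. Such linear sums mostly follow the brightest markers, here Krt18 of the trophectoderm (7.30 in wild-type cells) and Tagln of the fibroblast markers (6.05). Single markers could go the other way. Of the stem cell markers only Lin28a was lower in null than in wild-type cells (4.40 against 4.86). Of the primitive endoderm markers only Sox7 was lower in Map3k3 cells with than without Dox (-2.59 against -1.71). The part of these cell type differences in the results below was not tested. In such bulk samples, fewer cells of a type and less RNA per cell cannot be told apart.

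The first comparison set null cells against wild-type cells. Respiratory chain transcripts were on the whole higher in the null cells, by small amounts. The median difference over members was 0.33 on the log2 scale, against 0.07 for all 14443 genes, and 82 of 95 members were higher. The brightness of the probes moved with this: 82 members lay in the brightest 1 of 4 equal bins of genes, whose median over all genes was 0.19, against 0.34 for these members. At an adjusted p under 0.05 alone (limma, Benjamini-Hochberg over all genes), 68 members were higher (71.6%, against 34.8% of all genes) and 5 lower (5.26%, against 28.3%). A gene is said to have risen or fallen only where it also changed at least 1.5-fold. By that rule 19 members rose (20.0%, against 17.3% of all genes) and 2 fell (2.11%, against 20.5%), so the share that rose was near the background. Calls use fitted values, and those of the dim genes (here Cox8b among the rises and both falls) are counted although only a bound of their change is known. Quantile normalization left 7 rises and 2 falls, a median of 0.17 and 49 members higher at adjusted p alone. With slide row as a block, 51 members were higher at adjusted p alone, with a median of 0.325. This row term, here and below, comes only from the Map3k3 with Dox and EGFP groups, each with 1 array in row 1. It therefore cannot separate row from genotype.

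**Figure D1:**
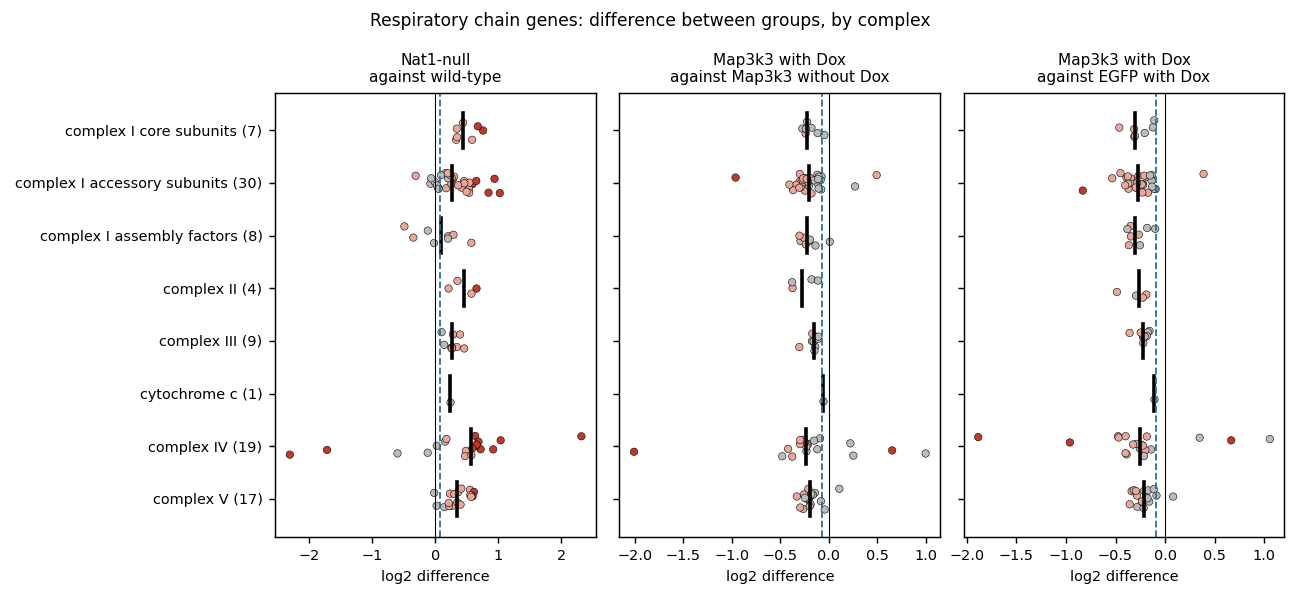
Log2 difference of each of the 95 respiratory chain genes (points) in 3 comparisons, grouped by complex with the number of genes in parentheses; dark red points were called (adjusted p under 0.05 and at least 1.5-fold), pale red ones passed the adjusted p alone, grey ones neither. Black bars are the medians of a group and dashed lines the median of all 14443 genes; most points lie right of 0 in null cells (median 0.33) and left of 0 with Map3k3 (medians -0.20 and -0.24).

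All 7 core subunits of complex I, which carry its flavin and iron-sulfur clusters, were higher in null cells at adjusted p alone (34.8% of all genes were). Of these 2 rose (28.6%, against 17.3% of all genes). Ndufs1, the largest core subunit, read 5.24, 5.26 and 5.31 in wild-type cells and 6.17, 5.76 and 6.17 in null cells. The groups did not overlap, and Ndufs1 rose 1.69-fold (log2 change 0.76, SE 0.15, adjusted p = 0.000878, limma). Ndufs8, which holds iron-sulfur clusters, read 2.84, 2.92 and 2.68 against 3.49, 3.48 and 3.49 and rose 1.60-fold, a call lost with quantile normalization (0.54). Ndufv1, which binds NADH, was higher by 0.34 (adjusted p = 0.00289, limma) but not by 1.5-fold.

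Of the 30 accessory subunits 5 rose (16.7%, near the 17.3% of all genes) and none fell. At adjusted p alone 20 were higher (66.7%, against 34.8%) and 1 was lower (3.33%, against 28.3%). At an unadjusted p under 0.05 there were 23, of which 22 were higher and 1 lower. For unadjusted p, here and below, no share of all genes is given, so these counts cannot be set against the background. Ndufb2, a small subunit of the membrane arm, read 4.38, 4.46 and 4.11 in wild-type cells and 5.37, 5.19 and 5.46 in null cells. Every null array lay above every wild-type array, and Ndufb2 rose 2.03-fold (log2 change 1.02, SE 0.10, adjusted p = 3.91e-06, limma). Ndufb3, also of the membrane arm, rose 1.80-fold, from 4.63 ± 0.16 to 5.47 ± 0.21 (SD, n = 3). The member lower at adjusted p alone was Ndufb7, with a difference of -0.31 (adjusted p = 0.000464, limma), named after its values were seen. Ndufb11 was represented by its brightest probe (change 0.54, not called), while a dimmer probe of it was called with a change of 0.97.

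The 8 complex I assembly factors, which help to build the complex but are not part of it, did not share a direction. Their median was 0.09 (all genes 0.07) and none was called. At adjusted p alone 3 of the 8 were higher and 2 lower (5 at an unadjusted p under 0.05, limma). The counts at adjusted p alone were near the shares of all genes, of which 34.8% were higher and 28.3% lower. Ndufaf3 read 1.28, 1.26 and 1.23 in wild-type cells and 0.80, 0.70 and 0.80 in null cells, a difference of -0.49 (adjusted p = 0.000197, limma) that stayed below 1.5-fold. Ndufaf6 differed by -0.35 (adjusted p = 8.58e-05, limma). Neither gene had overlapping wild-type and null arrays. For Ndufaf4 and Ndufaf5 the brightest probes were not called (0.20 and -0.02), and a dimmer probe of each was called higher (0.66 and 0.77).

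All 4 genes of complex II, which also belongs to the tricarboxylic acid cycle, were higher at adjusted p alone (34.8% of all genes were), with a median of 0.46. Sdhb, its iron-sulfur subunit, read 6.21 to 6.30 in wild-type cells and 6.89 to 6.92 in null cells, and rose 1.57-fold (log2 change 0.65, SE 0.05, adjusted p = 4.78e-07, limma). With quantile normalization its change was 0.52 and not called. Sdha, the flavoprotein subunit, and the membrane anchors Sdhc and Sdhd were higher by 0.21, 0.57 and 0.35. In complex III 7 of 9 genes were higher at adjusted p alone (77.8%, against 34.8% of all genes), and 7 at an unadjusted p under 0.05. None was called (median 0.27). Its catalytic genes Cyc1 and Uqcrfs1, the Rieske protein, differed by 0.25 (adjusted p = 0.00663, limma) and 0.10 (adjusted p = 0.496, limma). Uqcrc1 differed by 0.27 (adjusted p = 0.0292, limma). Cycs, the somatic cytochrome c, differed by 0.24 by its brightest probe (adjusted p = 0.0745, limma). A dimmer probe of Cycs was higher by 0.52 (adjusted p = 0.000845, limma over single probes), below 1.5-fold.

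Complex IV had the most calls, 9 of 19 genes up (47.4%, against 17.3% of all genes) and 2 down (10.5%, against 20.5%). Its median was 0.57. The rises include the dim Cox8b, whose bound of at least 1.41-fold is under the 1.5-fold minimum. Cox5b, a nuclear-encoded subunit on the matrix side, read 6.07, 5.90 and 5.83 in wild-type cells and 6.97, 6.63 and 6.95 in null cells. It rose 1.89-fold (log2 change 0.92, SE 0.14, adjusted p = 0.000133, limma), with no overlap between the groups. Cox6c rose 1.65-fold, Cox6b1 1.61-fold, Cox7c 1.58-fold, Cox7b 1.56-fold, Cox5a 1.55-fold, and Cox8a by 0.59 on the log2 scale. These are widely expressed subunits of the complex. With quantile normalization none of these 6 was called (0.42 to 0.54). Cox8a, the one closest to the 1.5-fold minimum, lost its call when wild-type array 1 or 2 or null array 1 or 2 was left out (0.53 to 0.58), and with slide row as a block (0.36). Cox4i1, a widely expressed subunit that is often used to mark mitochondria, differed by 0.02 (adjusted p = 0.831, limma). Ndufa4, now counted with complex IV, and Cox7a2 were higher by 0.57 and 0.47, below 1.5-fold, and Cox7a2l, an assembly factor of supercomplexes, by 0.18 (adjusted p = 0.0200, limma). Of the 17 genes of complex V 2 rose (11.8%, under the 17.3% of all genes). At adjusted p alone 14 were higher (82.4%, against 34.8% of all genes), and the median was 0.35. The catalytic subunits Atp5a1 and Atp5b differed by 0.27 (adjusted p = 0.0173, limma) and 0.14 (adjusted p = 0.285, limma). Atp5g1, Atp5g2 and Atp5g3, which encode the same c subunit, differed by -0.02, 0.22 and 0.55. Atp5j2 rose 1.51-fold by its brightest probe, with 0.59, and its other probe, with 0.52, was not called. It lost its call without wild-type array 1 or null array 1, and with slide row as a block (0.54).

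**Figure D2:**
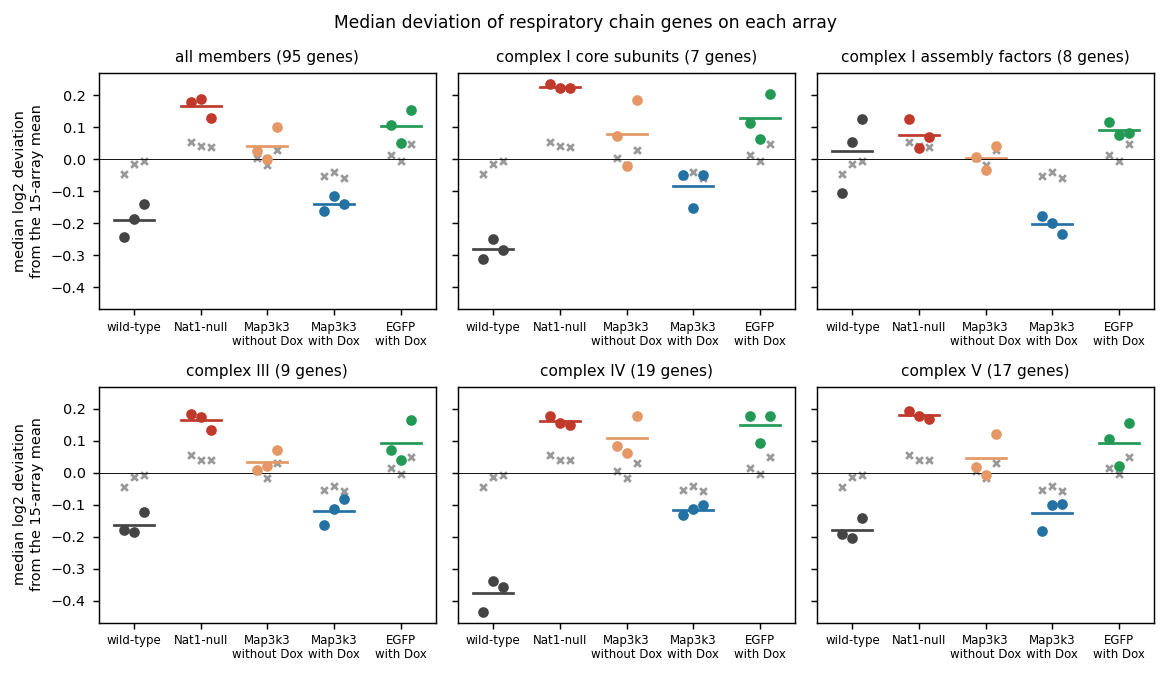
Median log2 deviation of each array (points) from each gene's mean over the 15 arrays, for all 95 respiratory chain genes and for 5 of the groups; horizontal bars are means of 3 arrays and grey crosses the same median over all 14443 genes. Over all members the wild-type arrays lie between -0.24 and -0.14, the null arrays between 0.13 and 0.19 and the Map3k3 with Dox arrays between -0.16 and -0.12.

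Isoforms known from particular tissues included several of the members with the largest differences, and some of them were dim. Cox7b2, known from testis, read -2.88, -2.53 and -2.47 in wild-type cells and -4.91, -4.73 and -5.15 in null cells, where it was above background on no array. It fell at least 3.06-fold (adjusted p = 7.92e-05, limma). Cox8c, also known from testis, read -2.43, -2.15 and -2.12 against -3.82, -4.14 and -3.89, and fell at least 3.11-fold (adjusted p = 6.66e-06, limma). Both were above background on all wild-type arrays and on all arrays of no other group. They thus entered the test only through the group in which they were higher, so their p-values are conditioned on that filter. The 6 testis germ cell markers summed to 7.71 to 8.17 in wild-type cells and 3.54 to 5.39 in null cells, and what part this had was not tested. Cox6b2, known from testis too, went the other way, from 1.97, 1.82 and 1.81 to 2.71, 3.48 and 2.52, and rose 2.05-fold (log2 change 1.04, SE 0.31, adjusted p = 0.0115, limma). Its call was lost without null array 2 (0.75) and with slide row as a block (0.78). Ndufa4l2, a hypoxia-induced relative of Ndufa4 that the symbol rule places with complex I, read 1.99, 1.29 and 1.34 against 2.29, 2.95 and 2.21 and rose 1.92-fold (adjusted p = 0.0139, limma). Its call was lost without wild-type array 2 or 3 or null array 2 (0.71 to 0.84), and with slide row as a block (1.05).

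Cox8b and Cox6a2 are isoforms of heart and skeletal muscle. Cox8b read -6.36, -6.88 and -6.18 in wild-type cells, below background throughout, and -4.87, -3.07 and -4.53 in null cells, where 1 of 3 arrays was above background. The fitted values called it higher (adjusted p = 0.00881, limma), but its bound of at least 1.41-fold is under the 1.5-fold minimum, and the call was lost with slide row as a block. Cox6a2 read -3.95, -3.75 and -3.43 in wild-type cells and -5.95, -5.94 and -1.02 in null cells, with adjusted p = 0.630 (limma). A single null array thus read far above the other two. Cox7a1, best known from the same tissues, differed by -0.12 (adjusted p = 0.413, limma) and Cox4i2, the isoform known from lung, by 0.16 (adjusted p = 0.179, limma). The muscle markers Myod1, Myog and Ckm were below background on all arrays, while the 8 muscle markers summed to 13.8 to 15.4 in wild-type cells and 0.379 to 1.12 in null cells. Myh6 was the brightest of them in wild-type cells (3.47, against -1.80 in null cells) and made up most of that sum.

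The second comparison set Map3k3 cells grown with Dox against the same line without Dox. The members were on the whole slightly lower with Dox: 87 of 95 were lower, with a median of -0.20 (all genes -0.07, brightest bin -0.12, its 82 members -0.20). At adjusted p alone 38 members were lower (40.0%, against 21.8% of all genes) and 2 higher (2.11%, against 18.1%). At 1.5-fold 1 rose (1.05%, against 12.3% of all genes) and 2 fell (2.11%, against 5.59%). The count of 38 rested on the settings: it was 16 with quantile normalization and also with only the 6 arrays compared. It was 22 within slide 1, 21 without Map3k3 without Dox 3 and 23 without Map3k3 with Dox 1. The medians were -0.22 within slide row 1, which held only 1 array with Dox (Map3k3 with Dox 1), and -0.15 without Map3k3 without Dox 3.

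Cox7a1 was the member that rose. It read 3.59, 3.77 and 3.72 without Dox and 4.57, 4.07 and 4.41 with Dox, with no overlap, a 1.57-fold change (log2 change 0.66, SE 0.12, adjusted p = 0.00134, limma) that dropped under 1.5-fold without Map3k3 with Dox 1 (0.55). Ndufab1, the acyl carrier protein of mitochondria and a complex I subunit, was the other member higher at adjusted p alone. It read 1.13 ± 0.050 without Dox and 1.63 ± 0.074 with Dox (SD, n = 3), with no overlap, a difference of 0.49 (adjusted p = 0.000148, limma). It was named after its values were seen.

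Cox8b and Ndufa4l2 fell, and both had been called higher in null cells. Cox8b read -4.38, -2.33 and -4.03 without Dox, all above background, and -5.87, -5.11 and -5.78 with Dox, none above background, and fell at least 1.69-fold (adjusted p = 0.0299, limma). It passed the filter on dim probes only through the group without Dox, where it was higher, so this p-value is conditioned on the filter. Its call was lost without Map3k3 without Dox 2 (-1.39), Map3k3 with Dox 1 (-1.87) or Map3k3 with Dox 3 (-1.91). Ndufa4l2 read 2.91, 3.46 and 2.80 without Dox and 2.46, 1.65 and 2.17 with Dox, and fell 1.95-fold (log2 change -0.96, SE 0.29, adjusted p = 0.0207, limma). That call was lost without Map3k3 without Dox 2 (-0.76) or Map3k3 with Dox 2 (-0.74), and with slide row as a block (-0.88). Within slide row 1, which held only 1 array with Dox, the difference of Ndufa4l2 was -0.60. The brightest probes of Ndufb11 and Ndufaf5 were not called (-0.30 and -0.26), while a dimmer probe of each was called lower (-0.62 and -1.20). That of Ndufaf5 was dim, with a mean level of -4.19.

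Among the widely expressed subunits the differences were small and mostly in one direction. Sdhb read 6.76 to 6.79 without Dox and 6.36 to 6.44 with Dox, a difference of -0.37 (adjusted p = 0.000149, limma), and its groups did not overlap. Cox6c differed by -0.42 (adjusted p = 0.0123, limma), Cox8a by -0.38, Cox7b by -0.30 and Atp5a1, a catalytic subunit of complex V, by -0.33, all lower at adjusted p alone. All core subunits of complex I had negative differences (-0.27 to -0.05), of which 1 passed the adjusted p (14.3%, under the 21.8% of all genes). In complex III 2 of 9 genes were lower at adjusted p alone (22.2%, near the share of all genes). In complex IV 9 of 19 (47.4%) and in complex V 7 of 17 (41.2%) were lower.

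**Figure D3:**
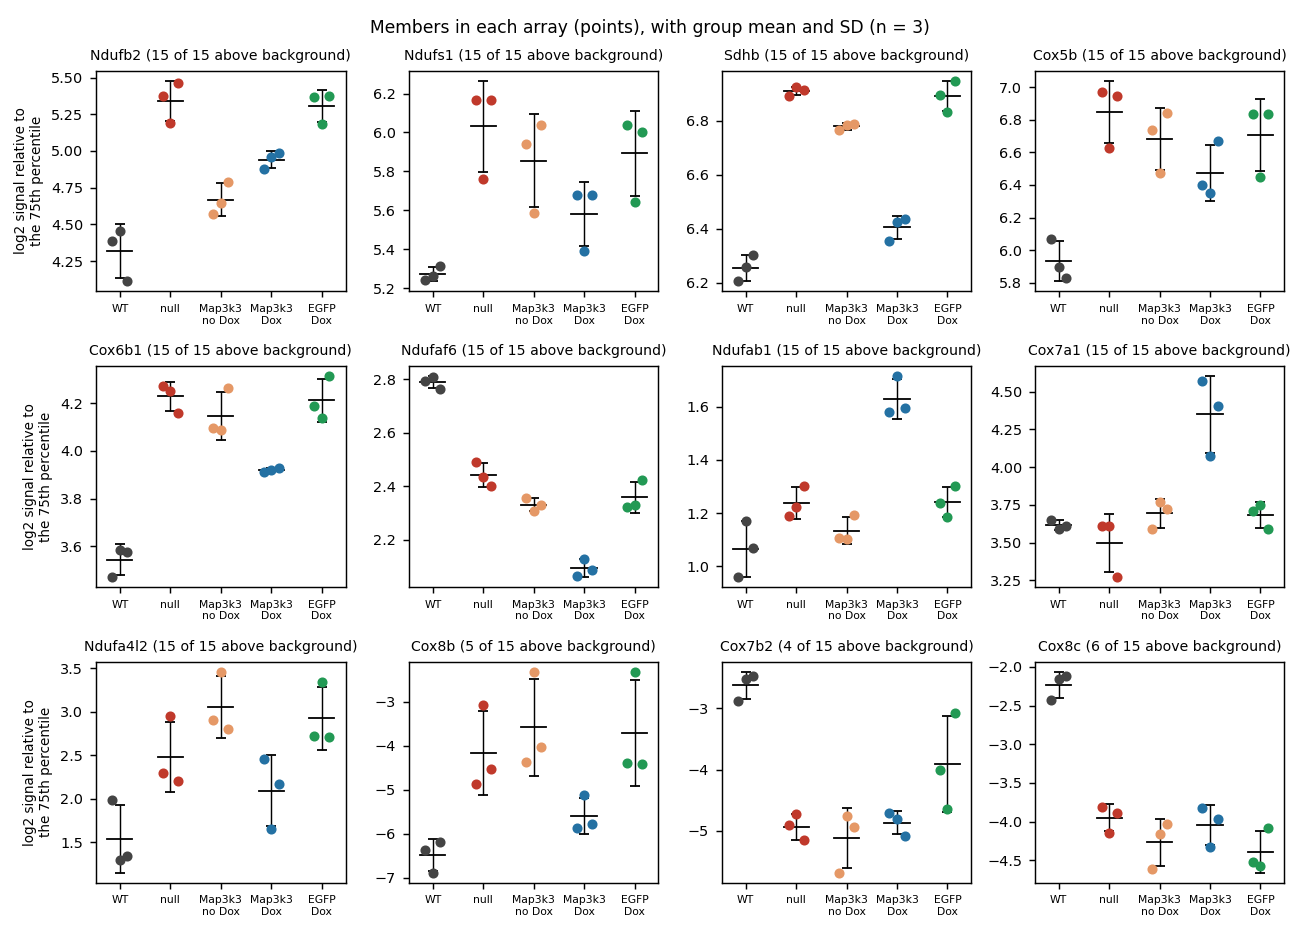
Log2 signal above each array's own 75th percentile for 12 respiratory chain genes on each array (points), with the mean and SD of 3 arrays per group; the number of arrays on which the probe was well above background is given in each title, and each panel has its own axis. Ndufb2 is low in both Map3k3 groups beside the null and EGFP cells, Cox7a1 and Ndufab1 are highest in Map3k3 cells with Dox, and Cox7b2 and Cox8c are highest in wild-type cells.

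Against EGFP cells with Dox, which share the Dox treatment and lack the Map3k3 transgene, Map3k3 cells with Dox gave like values. This comparison shares its Map3k3 arrays with the previous one and is not independent of it. The median difference over members was -0.24 (all genes -0.09), and 90 of 95 members were lower. At adjusted p alone 54 members were lower (56.8%, against 23.5% of all genes) and 2 higher (2.11%, against 18.0%). By the 1.5-fold rule 1 rose (1.05%, against 12.4% of all genes) and 3 fell (3.16%, against 5.67%). The count of 54 was 24 with quantile normalization, 22 with only the arrays compared, 7 within slide row 2 and 24 within slide 1. Row 1 held only 1 array of each group, Map3k3 with Dox 1 and EGFP 3, and these lay on different slides. The median was -0.32 between these single arrays and -0.20 within row 2.

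Cox7a1 read 3.71, 3.75 and 3.59 in EGFP cells, below all 3 Map3k3 arrays with Dox, and rose 1.59-fold (log2 change 0.67, SE 0.12, adjusted p = 0.00113, limma). Without Map3k3 with Dox 1 the change was 0.56 and not called. Ndufab1 was higher by 0.39 (adjusted p = 0.000825, limma). Ndufa4l2, with 2.72, 3.34 and 2.71 in EGFP cells, fell 1.78-fold (adjusted p = 0.0385, limma). Cox8b, with -4.38, -2.32 and -4.42 and 1 of 3 EGFP arrays above background, fell at least 1.55-fold (adjusted p = 0.0381, limma). Cox7b2, with -4.01, -4.64 and -3.07 in EGFP cells, 1 of them above background, and -4.71, -4.81 and -5.08 in Map3k3 cells with Dox, was called lower (adjusted p = 0.0381, limma) with a bound of at least 1.35-fold, under the 1.5-fold minimum. The 3 calls of lower members were weakly held. Ndufa4l2 was not called without Map3k3 with Dox 2 or 3 or EGFP 1 or 2 (-0.93 to -0.61). Its difference was -0.25 between the single arrays of slide row 1 and -1.12 within row 2, where it was not called. Cox8b was not called without Map3k3 with Dox 1 or 3 or EGFP 2 (-1.79 to -1.19). Cox7b2 was not called without any one Map3k3 with Dox array or EGFP 1 or 3 (-1.04 to -0.54). With only the 6 arrays compared, Cox7a1 alone was called. Dimmer probes of Ndufb11 and Ndufaf5 were called lower here too (-0.62 and -1.34), and their brightest probes were not (-0.32 and -0.34).

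Set against wild-type cells, Map3k3 cells with Dox had a member median of 0.05 (all genes -0.01), with 57 members higher and 38 lower. At adjusted p alone 26 were higher (27.4%, against 30.5% of all genes) and 19 lower (20.0%, against 31.2%). By the 1.5-fold rule 3 rose (3.16%, against 18.4% of all genes) and 4 fell (4.21%, against 19.9%). This comparison shares the wild-type arrays with that of the null cells, so the values of both are only set side by side. Map3k3 cells with Dox lay on slide 1 and wild-type cells on slide 2, so group and slide cannot be told apart here. The null and wild-type arrays all lay on slide 2. Ndufb2 differed from wild-type by 1.02 in null cells and 0.62 in Map3k3 cells with Dox, where it rose 1.54-fold (adjusted p = 0.000231, limma). Cox6b2 differed by 1.04 and 0.88, Cox5b by 0.92 and 0.54 and Sdhb by 0.65 and 0.15. Cox7a1 rose 1.66-fold in Map3k3 cells with Dox. Cox7b2 fell at least 3.28-fold, and Cox8c was called lower too, with 1 of 3 Map3k3 arrays above background and so no fold. Both passed the filter on dim probes only through the wild-type cells, where they were higher, so these calls are conditioned on the filter. The assembly factors Ndufaf3 and Ndufaf6 fell 1.63-fold (log2 change -0.71, adjusted p = 9.67e-06, limma) and 1.62-fold (log2 change -0.70, adjusted p = 2.69e-07, limma). Among the 8 assembly factors the median was -0.29, and 4 were lower at adjusted p alone.

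**Figure D4:**
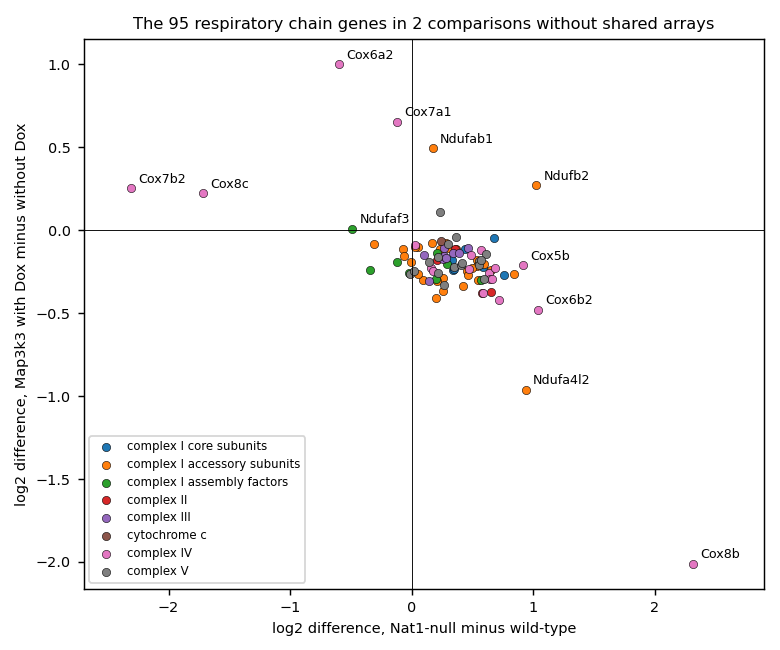
Log2 difference of each of the 95 respiratory chain genes between null and wild-type cells (horizontal) and between Map3k3 cells with and without Dox (vertical); colours give the complex, and the named points lie farthest from the rest. Most genes fall at the lower right, higher in null cells and lower with Map3k3; the 4 dim isoform genes and Ndufa4l2 widen the spread.

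The null against wild-type comparison and the Map3k3 comparison with and without Dox share no arrays. Of the 19 members that rose in null cells 2 (10.5%), Cox8b and Ndufa4l2, fell with Dox, and these were all of the 2 that fell. At adjusted p alone, 31 of the 68 members higher in null cells (45.6%) were lower with Dox, which is 81.6% of the 38 that were lower. Over all genes the same shares were 33.9% of 5025 and 54.2% of 3145. Since 40.0% of all members were lower with Dox and 71.6% higher in null cells, the overlap of members is close to what those shares alone would give. Over the 95 members Pearson's r between both differences was -0.60 and Spearman's rho -0.38, and over the 91 members above background on all arrays r was -0.32. Over all 14443 genes r was -0.49. These correlations are across genes of the same libraries, which are not independent replicates.

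The remaining comparisons set the transgenic lines against the null cells. For EGFP cells with Dox no member was called (limma), against 0.00692% of all genes. At an unadjusted p under 0.05 there were 6 of 95 (1 higher, 5 lower), and the member median was -0.05 (all genes -0.03). For Map3k3 cells without Dox no member was called either, against 0.0% of all genes. At an unadjusted p under 0.05 there were 22, all lower. For that threshold no share of all genes is given here. The member median was -0.12 (all genes -0.04, brightest bin -0.07, its 82 members -0.13). Ndufb2 stood out there. It read 4.57, 4.65 and 4.79 in Map3k3 cells without Dox, below all null arrays, a difference of -0.67 (SE 0.10, adjusted p = 0.0752, limma). With the replicate number as a block, which pairs these arrays, its adjusted p was 0.0366 and it was called. EGFP cells read 5.37, 5.18 and 5.37, in the range of the null cells (difference -0.03), and with Dox the Map3k3 line read 4.88, 4.96 and 4.99. Map3k3 cells without Dox lay on slide 1 and null cells on slide 2, so that line and slide cannot be told apart between these groups. With slide as a block over all 15 arrays the difference was -0.58 (adjusted p = 0.711, limma). Only the EGFP group lay on both slides, with EGFP 3 alone on slide 2. The slide term thus rests on that 1 array and cannot separate line from slide.

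Genes around the respiratory chain were taken from fixed lists. Of 18 regulators of mitochondrial genes 17 were tested, and in null cells 5 rose and 1 fell (17.3% and 20.5% of all genes did), with a median of 0.37 (all genes 0.07). Nrf1, which encodes a transcription factor of nuclear mitochondrial genes, rose 1.90-fold, from 1.83 to 2.76 (log2 change 0.93, SE 0.06, adjusted p = 1.59e-07, limma). Mterf3 rose 1.66-fold, Yy1 1.60-fold and Gabpa 1.54-fold, and Polg2, the accessory subunit of the mitochondrial DNA polymerase, fell 1.79-fold. With Dox in Map3k3 cells Ppargc1b, a coactivator of mitochondrial genes, was called lower (adjusted p = 0.00673, limma) with a bound of at least 1.20-fold, under the 1.5-fold minimum, and with 2 of 3 arrays without Dox and none with Dox above background. Against EGFP cells Tfb1m, an rRNA methyltransferase of the mitochondrial ribosome, fell 1.56-fold (adjusted p = 0.000447, limma). There Ppargc1b was called lower but was above background on no array of either group.

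Of 44 assembly factors outside the symbol rule 39 were tested, and in null cells 6 rose and 4 fell (median -0.05), shares under those of all genes (17.3% and 20.5%). Sdhaf1, of complex II assembly, rose 1.96-fold, and Cox20, Higd2a and Cox14, which act on complex IV or its supercomplexes, rose 1.84-fold, 1.83-fold and 1.73-fold. Tmem126b of complex I assembly fell 1.97-fold, Taco1, which activates translation of a complex IV subunit in mitochondria, 1.90-fold, Sco2, a copper chaperone of complex IV, 1.61-fold, and Ttc19 of complex III 1.60-fold. With Dox none of these 39 assembly factors was called against Map3k3 cells without Dox (limma). At adjusted p alone 6 of the 39 were lower, against 21.8% of all genes. Cox17 was called lower against EGFP cells (adjusted p = 0.0194, limma), with 1 of 3 Map3k3 arrays above background. Among 17 genes of the tricarboxylic acid cycle and pyruvate dehydrogenase 1 rose and 2 fell in null cells, also under the shares of all genes (17.3% and 20.5%). Pdhx, of the pyruvate dehydrogenase complex, rose 1.68-fold. Suclg2, a succinate-CoA ligase subunit, fell 3.19-fold (2.25 to 0.58, adjusted p = 2.14e-07, limma) and Ogdh 1.62-fold. Of 9 genes for uncoupling and electron entry by other routes, Ucp2, Ucp3 and Etfdh rose 1.95-fold, 1.88-fold and 1.70-fold in null cells. Dhodh, of pyrimidine synthesis, fell 1.53-fold. Here too 17.3% of all genes rose and 20.5% fell. No gene of the last 2 lists was called in either Map3k3 comparison with Dox-free or EGFP cells (limma). At adjusted p alone 5 and 7 of the 17, and 2 and 3 of the 9, passed. These shares were near or under those of all genes, of which 18.1% were higher and 21.8% lower with and without Dox. Against EGFP cells 18.0% of all genes were higher and 23.5% lower.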

How the data were processed

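Single-colour array files held intensity values that, per the file headers, the authors' scanner software (Feature Extraction 11.5.1.1) had background-subtracted but not normalized between arrays. The authors' deposited value table, on a log2 scale, was used as an alternative. Here log2 intensity minus the array's 75th percentile over non-control probes was used, outlier spots were left out and spots of a probe were averaged. Probes were named through RefSeq accessions, and each gene was represented by its brightest passing probe. One mean per group was fitted over all 15 arrays with limma 3.58.1 (R 4.3.3), with Benjamini-Hochberg adjustment over 14443 genes. The procedure was tested on simulated data. A fold bound set the brighter group's mean against the higher, per array, of the lowest signal well above background and the dim probe's own.

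The members, lists and named genes were chosen with earlier results of these data known. The naming rule took up to 12 called members in each direction in the first 4 comparisons, by size of change, the isoform genes with a tissue-restricted partner, a set of core subunits, up to 5 members whose probes disagreed, and up to 4 called genes per direction of each other list. Any other gene named was chosen after its values were seen. The planned background alternative needed a mean signal that the files used here did not hold, so the median signal was used. Same-numbered arrays deviated together (r above 0.1 for every pair) in both Map3k3 comparisons with cells lacking the induced transgene and in the comparisons of transgenic lines with null cells, but not in those with wild-type cells (r from -0.029 to 0.065). Alternatives covered background, scaling, filters, probe choice, arrays in the fit, blocks for replicate number, slide and row, and leaving out each array. The number of arrays limits the precision.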

Additional observations from a re-analysis of the deposited data

How the results depend on the processing

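No member count or median reversed. Without a fold minimum 73 members were called in null against wild-type cells, 40 in Map3k3 cells with against without Dox, 56 against EGFP cells and 45 against wild-type cells, and the overlap of the first 2 was 33. Quantile normalization gave 9 calls in null cells (median 0.17), 16 lower members with Dox (median -0.10) and 24 against EGFP cells (median -0.12), where 2 were called. The lower members numbered 16 with and without Dox and 22 against EGFP cells with only the arrays compared, and 23 with and without Dox with slide row as a block. Within slide row 1 they were 11 and 10 (the latter with a median of -0.32), within row 2 7 against EGFP cells (0 called), and within slide 1 22 and 24 (1 called against EGFP cells). Calls against EGFP cells were 2 with probes above background on all 15 arrays, 1 with no filter and 1 with only the arrays compared. In Map3k3 cells without Dox against null cells 1 member was called with normexp, with the all-array filter and with the replicate block. The overlap was 1 with normexp, 1 with the all-array filter and 0 with slide row as a block. The causes were not tested. Leaving out 1 array gave 17 to 23 calls (median 0.27 to 0.36) in null cells, 1 to 3 calls, 21 to 33 lower members and medians of -0.22 to -0.15 with and without Dox, 1 to 3 calls against EGFP cells, and an overlap of 0 to 2. With the replicate block, calls in the 6 comparisons, in the order of the text, numbered 21, 3, 4, 7, 0 and 1, and 47 and 66 members were lower in both Map3k3 comparisons. Of the named genes called in null cells, with and without Dox and against EGFP cells, 12 of 18, 3 of 3 and 4 of 4 lost the call under at least 1 alternative, and none changed sign. Rows and slides that held 1 group of a pair gave no within-batch value. Signal near background limits Cox6a2, Cox7b2, Cox8b and Cox8c to bounds.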

Other observations

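Cox8b, Cox6b2 and Ndufa4l2 read highest in replicate 2 of the null, Map3k3 without Dox and EGFP groups. For Cox6b2 replicate 2 read 3.48, 3.80 and 3.77 in these groups, and the other arrays read 2.52 to 3.09. Ndufs1 and Cox5b read lowest in the same arrays, with 5.76, 5.59 and 5.64 for Ndufs1 against 5.94 to 6.17 on the other arrays of these groups. In Map3k3 cells with Dox replicate 2 also read highest for Cox8b (-5.11) and Cox6b2 (3.04) and lowest for Ndufs1 (5.39) and Cox5b (6.35). Ndufa4l2 departed there, with its lowest value in replicate 2 (1.65). The pattern was noticed in the values and was not tested, and the labels do not say what the replicate numbers mark.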
